A study of Homo sapiens with 4 samples.

Results

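Chromosome 3 held 255 of the 4077 p63 peaks listed for p63 immunoprecipitate (IP) replicate 1 in HSC-5 cells, a long-established line from a human squamous carcinoma of the skin. The members were chosen by chromosome alone: a peak that started below 90 Mb was placed on the short arm, and one that started above 94 Mb on the long arm. The short arm held 37 peaks, the long arm 203, and 15 lay in the span between them. The study has 4 samples, 2 input libraries and 2 p63 IPs, all crosslinked with 1% formaldehyde for 12 min. Both IP peak lists were used, and the input files were left aside. HSC-5 is 1 line, and nothing in the labels states that the replicates were separate cultures, so their spread may be technical. Replicate 1 rests on 12687447 kept IP tags and replicate 2 on 868393, which is 6.84% of that depth, and the lowest tag count of a listed peak was 8 and 4. The limits were 89890515 for the last short-arm peak (8 tags) and 94402892 for the first long-arm peak (10 tags). The nearest peaks outside them started at 90490221 (8 tags) and 93710124 (700 tags).

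p63, a relative of p53 that binds DNA, keeps basal cells of stratified epithelia in their state. It binds DNA as a tetramer at sites built from repeated CNNG cores, most often at enhancers away from gene starts. The long arm of chromosome 3 carries TP63, its own gene, with SOX2, a transcription factor of squamous epithelia, and PIK3CA, a catalytic subunit of phosphoinositide 3-kinase. The segment with these genes is commonly gained in squamous carcinomas, and the short arm is commonly lost. Copy number is not given in the peak lists and was not measured here.

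Promoter sequence was at hand for few of the peaks, because nearly all lay away from gene starts. Of the 255 peaks, 4 overlapped a promoter window of 250 bases before to 50 bases after a listed start (RefSeq, GRCh38.p14), and all 4 lay on the long arm, at SCHIP1, PPP2R3A, BFSP2-AS1 and ABCC5-AS1. The first 3, whose summits lie nearest to the start among the 4, are shown. The bases that lie inside the peak are in capitals, 5′ to 3′ on the gene's strand.
SCHIP1, chr3:159763432-159763731, plus strand: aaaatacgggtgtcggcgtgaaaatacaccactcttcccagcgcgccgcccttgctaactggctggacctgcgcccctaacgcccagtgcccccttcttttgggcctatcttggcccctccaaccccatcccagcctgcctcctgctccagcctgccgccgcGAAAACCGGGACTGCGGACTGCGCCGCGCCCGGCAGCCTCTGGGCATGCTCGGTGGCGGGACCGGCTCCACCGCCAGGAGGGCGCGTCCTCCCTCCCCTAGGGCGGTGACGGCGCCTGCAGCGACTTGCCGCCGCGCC
PPP2R3A, chr3:136022492-136022791, plus strand: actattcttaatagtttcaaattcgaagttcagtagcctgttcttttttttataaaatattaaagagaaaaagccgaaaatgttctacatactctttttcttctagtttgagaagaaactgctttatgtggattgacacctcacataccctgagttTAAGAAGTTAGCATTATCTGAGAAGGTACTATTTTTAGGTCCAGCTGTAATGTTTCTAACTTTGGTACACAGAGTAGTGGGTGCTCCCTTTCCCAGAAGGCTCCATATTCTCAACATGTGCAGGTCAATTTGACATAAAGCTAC
BFSP2-AS1, chr3:133455973-133456272, minus strand: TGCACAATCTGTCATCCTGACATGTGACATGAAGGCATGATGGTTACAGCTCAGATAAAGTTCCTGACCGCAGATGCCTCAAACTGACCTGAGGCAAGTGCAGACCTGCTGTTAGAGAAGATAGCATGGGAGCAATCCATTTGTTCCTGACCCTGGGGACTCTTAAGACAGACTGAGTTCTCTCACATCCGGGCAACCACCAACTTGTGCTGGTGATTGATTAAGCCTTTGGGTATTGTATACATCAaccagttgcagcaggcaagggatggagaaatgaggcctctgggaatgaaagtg
The SCHIP1 peak had 9 tags and its summit lay 9 bases before an internal start of SCHIP1, a gene of a cytoskeletal adaptor protein. The peak at PPP2R3A, which encodes a regulatory subunit of protein phosphatase 2A, had 35 tags and a summit 162 bases past the start. The BFSP2-AS1 peak had 18 tags and a summit 190 bases before the start of this antisense RNA gene inside BFSP2. On both strands, a pair of p53 family cores, CNTG and CNTG with 6 bases between them, was found at 2 places in the SCHIP1 window, from bases 142 and 277, and at 0 in the others. Of these places, the one from base 277 lies inside the peak and the one from base 142 outside it. This pair occurs in 14.8% of all 35116 promoter windows. The looser pair, CNNG and CNNG with the same gap, includes the first. It was found 4, 0 and 2 times in the SCHIP1, PPP2R3A and BFSP2-AS1 windows and occurs in 74.0% of all windows. The AP-1 letters TGANTCA were found in none of the 3, and occur in 7.71% of all. The ABCC5-AS1 window, not shown, held them at 1 place, outside its peak.

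The long arm carried 4.75 times as many replicate 1 peaks per Mb as the short arm. The short arm held 0.411 peaks per Mb (95% exact Poisson interval 0.289 to 0.567, over 90 Mb), and the long arm 1.95 (1.69 to 2.24, over 104 Mb up to the end of the last protein-coding gene). Chromosomes 1 to 22 and X together held 1.31. The ratio of the arms had a 95% interval of 3.33 to 6.93 (exact binomial test, two-sided, p = 3.8e-24; adjusted over 32 comparisons of arms and segments, 3.1e-23). The arms differ little in gene density, with 5.57 and 5.41 protein-coding genes per Mb. By gene, the short arm held 7.39 peaks per 100 protein-coding genes (5.20 to 10.2, 501 genes) and the long arm 36.1 (31.3 to 41.4, 563 genes), a ratio of 4.88 (3.43 to 7.13, exact binomial test, adjusted p = 4.7e-24). Intervals and tests cover counting error only. Neighbouring peaks are not independent, so the p-values are too small.

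The short arm lay below the rest of the genome and the long arm above it. Against the remainder of chromosomes 1 to 22 and X, the short arm had 0.307 times the peaks per Mb (0.216 to 0.424, exact binomial test, adjusted p = 1.3e-17). The long arm had 1.52 times (1.31 to 1.75, exact binomial test, adjusted p = 1.5e-07).

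In replicate 2, whose list the choice of peaks did not use, the arms differed in the same direction by a smaller ratio. Replicate 2 held 59 short-arm and 109 long-arm peaks, or 0.656 (0.499 to 0.846) and 1.05 (0.860 to 1.26) per Mb. Its ratio of 1.60 (1.15 to 2.23) passed the threshold (exact binomial test, adjusted p = 0.0062). Per gene the ratio was 1.64 (1.19 to 2.30, exact binomial test, adjusted p = 0.0036). The intervals of the arm ratio do not overlap between the replicates. The replicate 2 short arm was also below the rest of the genome per Mb (0.685 times, exact binomial test, adjusted p = 0.0047), while by gene share it did not pass (0.816 times, 0.619 to 1.06, exact binomial test, adjusted p = 0.16). Its long arm did not pass per Mb (1.11 times, 0.907 to 1.34, exact binomial test, adjusted p = 0.31) and passed by gene share (1.36 times, 1.11 to 1.65, exact binomial test, adjusted p = 0.0039).

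**Figure D1:**
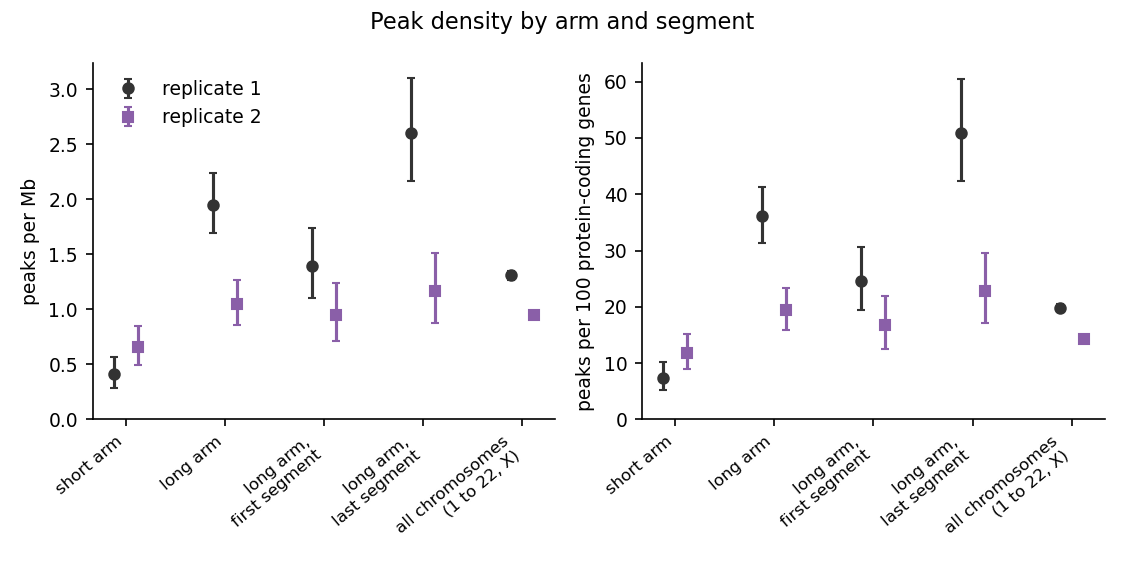
Peaks per Mb (left) and per 100 protein-coding genes (right) on the short arm, the long arm, its segments from 94 to 150 Mb (first) and from 150 Mb to the end (last), and chromosomes 1 to 22 and X; circles are replicate 1, squares replicate 2, and bars are 95% exact Poisson intervals. In replicate 1 the short arm lies at 0.411 peaks per Mb and the last segment at 2.60, while in replicate 2 these are 0.656 and 1.17.

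Within the long arm, peaks were densest from 150 Mb to the end in replicate 1, the segment with SOX2, PIK3CA and TP63. This segment held 125 peaks, or 2.60 per Mb (2.17 to 3.10), against 78 peaks and 1.39 per Mb (1.10 to 1.74) from 94 to 150 Mb. The ratio was 1.87 (1.397 to 2.511, exact binomial test, adjusted p = 2.6e-05). By gene it was 2.07 (1.54 to 2.78, exact binomial test, adjusted p = 9.6e-07), with 50.8 peaks per 100 genes over 246 genes against 24.6 over 317. The part of the long arm before 150 Mb was itself denser than the short arm, by 3.39 times (2.26 to 5.16, exact binomial test, adjusted p = 7.7e-10). In replicate 2 that contrast did not pass (1.44 times, 0.977 to 2.13, exact binomial test, adjusted p = 0.076). Against the rest of the genome in replicate 1, that stretch did not pass (1.06 times, 0.839 to 1.33, exact binomial test, adjusted p = 0.57), while the last segment stood at 2.02 times (1.67 to 2.41, exact binomial test, adjusted p = 1.3e-11). The last segment of replicate 2 did not pass against the rest of the genome per Mb (1.23 times, 0.929 to 1.61, exact binomial test, adjusted p = 0.15). By gene share it passed (1.60 times, 1.20 to 2.08, exact binomial test, adjusted p = 0.0024). In replicate 2 the last segment did not pass against 94 to 150 Mb, at 1.23 times (0.831 to 1.83, exact binomial test, adjusted p = 0.31). In replicate 1 the call ended among peaks with a score of 100 or more, at 1.70 times per Mb (0.798 to 3.75, exact binomial test, unadjusted p = 0.16).

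The step between the arms also appeared in bins of 10 Mb. In replicate 1, the 9 short-arm bins held 1 to 8 peaks each (median 4), where the genome rate gives 13.1. The 10 long-arm bins from 100 Mb held 8 to 31 (median 19, the last bin being 8.04 Mb long). The highest short-arm count equals the lowest long-arm count, so the ranges meet at 8 peaks. Of the short-arm bins, 6 were below the genome rate, against 18.4% of all 316 bins of the genome called below, and 0 were above (exact binomial test, Benjamini-Hochberg adjustment over all bins). The lowest were the bins at 60 and 80 Mb, with 1 peak each (exact binomial test, adjusted p = 0.00056). The bin at 40 Mb had the most short-arm peaks, 8, beside the most protein-coding genes of the chromosome, 148. On the long arm, 3 bins were above the genome rate, against 12.7% of all bins called above, and 0 below. They started at 150 Mb (30 peaks, exact binomial test, adjusted p = 0.00045), 170 Mb (31 peaks, adjusted p = 0.00022) and 190 Mb (25 peaks, adjusted p = 0.00099). With gene share in place of length, 6 bins of the chromosome were above and 4 below. Among peaks with folds from 10 up, 3 bins were above and 2 below, and among peaks with scores from 100 up 0 were called.

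Replicate 2 bins showed less contrast. Its short-arm bins held 3 to 10 peaks (median 6) and its long-arm bins from 100 Mb held 4 to 20 (median 10), at a genome rate of 9.48. These ranges overlap from 4 to 10 peaks. Bins above the genome rate numbered 2, against 7.59% of all bins, and bins below numbered 0, against 4.11%. They started at 120 Mb (20 peaks, exact binomial test, adjusted p = 0.026) and at 190 Mb (16 peaks, exact binomial test, adjusted p = 0.0496). The bin at 170 Mb, the fullest in replicate 1, held 5 peaks in replicate 2.

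**Figure D2:**
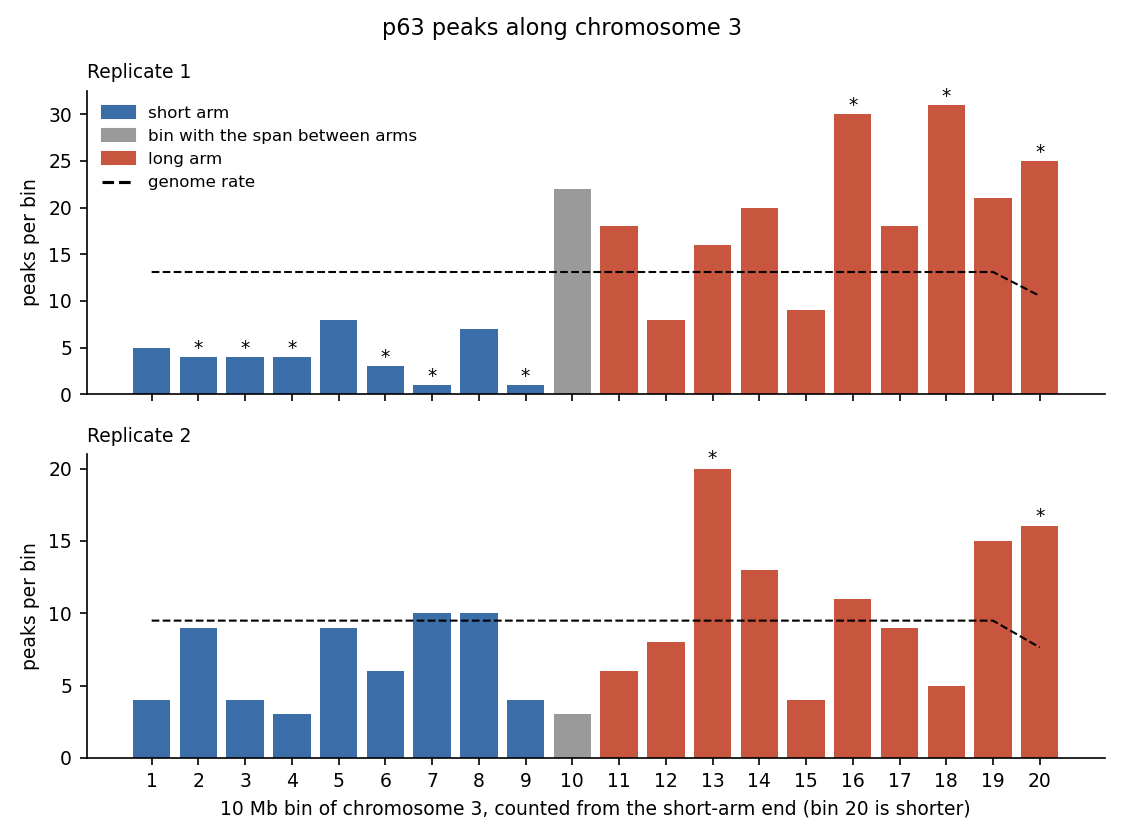
Peaks per 10 Mb bin of chromosome 3, numbered from the short-arm end, in replicate 1 (top) and replicate 2 (bottom); colours mark the arms, the dashed line is the count the genome rate gives, and stars mark bins past an adjusted p of 0.05. In replicate 1 all 9 short-arm bins lie under the line and 3 bins of the last long-arm segment are starred above it.

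The peaks of the arms were alike in tags and width and unlike in deposited fold. Tags ran from 8 to 34 on the short arm and from 8 to 48 on the long arm, with a median of 10 on each. The median width was 233 bp (range 155 to 382) on the short arm and 246 bp (149 to 587) on the long arm. The fold enrichment is the authors' ratio of IP to a control level, and whether that level was local is not listed. Its median was 18.17 (quartiles 15.57 and 23.36) on the short arm and 12.98 (11.35 and 15.515) on the long arm. These are descriptions with no test, since peaks of 1 library are no replicates of an arm. The median over chromosomes 1 to 22 and X was 13.43.

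The fold differed between the arms at equal tags. Among peaks of 8 tags the median fold was 14.85 on the short arm (13 peaks) and 12.98 on the long arm (50 peaks). At 10 tags it was 18.17 (4 peaks) and 11.99 (29 peaks), and at 11 to 13 tags 22.28 (9 peaks) and 12.16 (32 peaks). At 21 tags or more the medians were 27.23 (3 peaks) and 25.625 (22 peaks). The fold ranges of the arms overlapped in every tag class of both replicates. At 11 to 13 tags in replicate 1 they ran from 12.72 to 25.95 on the short arm and from 7.1 to 20.63 on the long arm. In replicate 2, peaks of 4 tags had a median fold of 141.14 on the short arm (39 peaks) and 72.53 on the long arm (62 peaks). Widths differed too in some of these classes, with a median of 90.5 bp on the short arm and 169 bp on the long arm at 5 tags in replicate 2. At 4 tags in replicate 2, the highest fold was 144.61 on both arms. The lists give no control level per peak, and the parts of control level and peak shape in the fold were not tested. The part of DNA copy number in the folds and in the peak counts was not tested. The share of peaks with a score of 100 or more was 21.6% on the short arm (8 peaks) and 15.8% on the long arm (32 peaks).

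**Figure D3:**
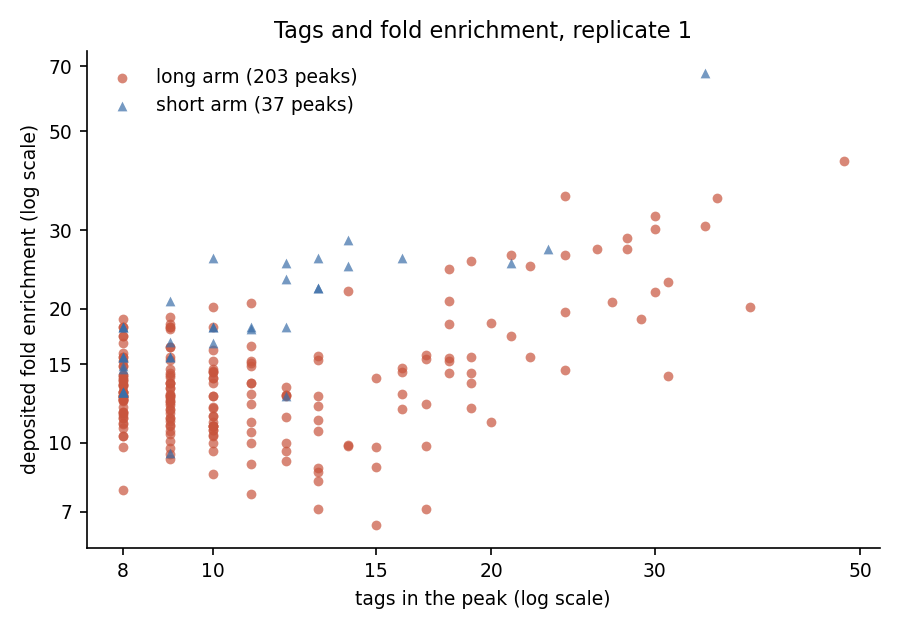
Tags (x axis) against deposited fold enrichment (y axis) of replicate 1 peaks, both on log scales, with triangles for the 37 short-arm and circles for the 203 long-arm peaks. At 11 to 13 tags the short-arm peaks have a median fold of 22.28 and the long-arm peaks 12.16.

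The strongest short-arm peaks lay in or near single genes, apart from FOXP1 with 3. The highest, at chr3:53269960-53270240, had 34 tags, with a 95% Poisson interval of 23.5 to 47.5, at a fold of 67.48. It lay 13.4 kb outside DCP1A, an mRNA decapping activator, and 14.05 kb before a start of TKT, the transketolase gene. FOXP1, a forkhead transcription factor gene of 629 kb, held 3 peaks, more than any other gene of the short arm, with 23, 12 and 16 tags. Its strongest, at chr3:71011531-71011912, had a fold of 27.23. INKA1, whose product inhibits the kinase PAK4, held a peak of 14 tags (fold 28.55) 0.678 kb past its start. A peak of 21 tags (fold 25.28) in CCDC51 lay 2.66 kb before a start of PLXNB1, a semaphorin receptor gene. Peaks of 13 tags lay 14.5 kb outside SATB1, a chromatin organiser (fold 25.95), and in SEMA3F, a secreted semaphorin (fold 22.28). BHLHE40, a transcriptional repressor of the clock, had a peak of 12 tags (fold 25.32) 9.79 kb outside its span. A peak of 10 tags (fold 25.95) lay 11.7 kb outside SSUH2. None of these short-arm peaks was paired with a replicate 2 peak by the spacing method described further on.

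The strongest long-arm peaks gathered around TP63, in SCHIP1 and in single genes along the arm. The highest, at chr3:190037956-190038381, had 48 tags (35.4 to 63.6) at a fold of 42.79, inside P3H2, a prolyl hydroxylase gene for basement membrane collagen. MME, the gene of the membrane peptidase neprilysin, held a peak of 24 tags and a fold of 35.80 at chr3:155124836-155125067. CHCHD6, a mitochondrial cristae gene, held one of 34 tags (fold 30.63) and NME9 one of 30 tags (fold 32.35). ETV5, an ETS transcription factor, held a peak of 26 tags (fold 27.23). A peak of 30 tags (fold 30.25) lay 133 kb outside OPA1, a mitochondrial fusion gene, and one of 24 tags (fold 26.42) 29.3 kb before the start of MAGEF1. SCHIP1 held 9 peaks over its 624 kb span, with 8 to 28 tags, the most of any list gene. Of these 9, 4 lay between 159784129 and 159829877 with 28, 27, 28 and 17 tags.

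Genes of the gained segment held peaks at 9 of 25 members (36.0%), where 19.9% of the 246 protein-coding genes of that segment and 10.2% of 19974 genes in all held a summit in their span or within 10 kb. The members and lists were chosen with earlier results known, so these shares are descriptions. They were not matched for gene length, and a longer span has more room for a summit. TP63 held 2 peaks, the stronger with 38 tags. CLDN1, the claudin of the epidermal barrier, had a peak of 31 tags 3.70 kb outside it, within CLDN16. MECOM, a zinc finger transcription factor gene of 580 kb, held 3 peaks of 10 to 16 tags, and NAALADL2, the longest of the list at 1370 kb, 4 peaks of up to 10 tags. ECT2, PLD1 (phospholipase D), FNDC3B and GNB4 (a G protein beta subunit) held 2 each and TFRC (the transferrin receptor) 1, with at most 12 tags. PIK3CA held 0, the nearest peak lying 255 kb away with 10 tags. SOX2 also held 0, yet 4 peaks had it as their nearest protein-coding gene, at 148 to 349 kb, the strongest with 31 tags (fold 22.93) at 338 kb. TBL1XR1, a corepressor subunit, was nearest to 9 peaks, none inside, at 36.9 to 389.8 kb and with 8 to 19 tags.

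Short-arm genes known for loss in carcinomas held peaks at 3 of 25 (12.0%), where 5.59% of the 501 short-arm genes did. They were FOXP1, SEMA3F and CTDSPL, a phosphatase gene with a peak of 12 tags (fold 23.36). The others included VHL, BAP1, SETD2, PBRM1 and FHIT, with the nearest peak 269, 860.1, 1238, 584 and 2963 kb away. Of 22 genes listed for keratinocytes on either arm, 8 held a peak (36.4%), where 5.59% of short-arm genes, 16.2% of the 563 long-arm genes and 10.2% of all genes did. This list was likewise chosen with earlier results known and includes SCHIP1, with 9 peaks, and TPRG1, with 3. Its share is a description, as is that of the short-arm genes known for loss, and neither was matched for gene length. TP63, SOX2 and CLDN1 are also in the list of the gained segment. On the short arm the genes of this list with a peak were BHLHE40 and COL7A1, the anchoring fibril collagen. The COL7A1 peak, of 11 tags, lay 4.03 kb outside that gene, within UQCRC1. On the long arm TPRG1 held 3 peaks of 8 to 15 tags, IL1RAP, a subunit of the interleukin-1 receptor, 2 of up to 13 tags and the integrin gene ITGB5 1 of 11 tags, beside TP63, CLDN1 and SCHIP1.

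Short-arm peaks lay closer to listed gene starts than long-arm peaks. Within 10 kb of a start lay 11 of 37 short-arm summits (29.7%, Wilson 95% interval 17.5 to 45.8) and 18 of 203 on the long arm (8.87%, 5.68 to 13.6). Over chromosomes with listed starts the share was 14.9% of 3733 summits. The median distance to a start was 37.1 kb on the short arm, 79.5 kb on the long arm and 103.4 kb from 150 Mb to the end. Inside protein-coding genes lay 51.4% (35.9 to 66.6) and 49.3% (42.5 to 56.1) of summits, and these intervals overlap. Starts were listed for 934 of 1066 protein-coding genes of the chromosome.

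Sites that recurred in replicate 2 lay on the long arm in the pairs found. The lists use different genome numberings, so peaks were paired by spacing: a pair counted where its summit offset matched that of 2 or more nearby pairs to 100 bp. This paired 27 of 203 long-arm peaks (13.3%, Wilson 9.30 to 18.7; 24.8% of the 109 in replicate 2), where 5.43% of 3867 peaks under 1 kb were paired over chromosomes 1 to 22 and X. On the short arm 0 of 37 were paired, with an upper limit of 8.11% by the limit of 3 counts and 9.41% by the Wilson interval. These limits treat peaks as independent, while a pair counts only with other pairs nearby. They therefore do not bound the share of sites that recur. Replicate 2 positions were lower, by 281.131 to 281.222 kb for the 11 pairs before 150 Mb and 282.117 to 282.318 kb for the 16 beyond, small beside a bin of 10 Mb. Over a whole arm, whatever the distance between pairs, at most 2 short-arm pairs shared an offset within 200 bp, and at most 15 long-arm pairs did. The method needs several recurring pairs of 1 offset, so it finds fewer where peaks are sparse or where the offset changes along the arm. How the offset runs along the short arm was not measured. Whether the short-arm sites recur is not settled by it.

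Long-arm peaks with more tags were paired more often. Of 50 with 8 tags 0 were paired, of 102 with 9 to 13 tags 4 (3.92%), of 27 with 14 to 19 tags 10 (37.0%) and of 24 with 20 or more 13 (54.2%). Only 6 short-arm peaks had 14 tags or more. The 27 included the SCHIP1 sites of 28, 27, 28 and 17 tags, with 6, 5, 7 and 11 tags in replicate 2, the PPP2R3A promoter (35 and 4 tags) and the MME site (24 and 4 tags). Sites at CHCHD6 (34 and 6 tags), ALCAM, a cell adhesion gene (30 and 4 tags), beyond SOX2 (31 and 5 tags) and next to CLDN1 (31 and 7 tags) were also paired. The stronger TP63 site had 38 and 4 tags. Sites in SLC15A2, a peptide transporter gene (18 and 6 tags), CD86, a costimulatory ligand of immune cells (24 and 4 tags), and MB21D2 (16 and 9 tags) were paired as well. The highest replicate 2 count among paired sites, 11 tags, was at the SCHIP1 site with 17 tags in replicate 1. The highest long-arm peak, in P3H2, was not paired, nor were the NME9 and OPA1 peaks of 30 tags each.

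**Figure D4:**
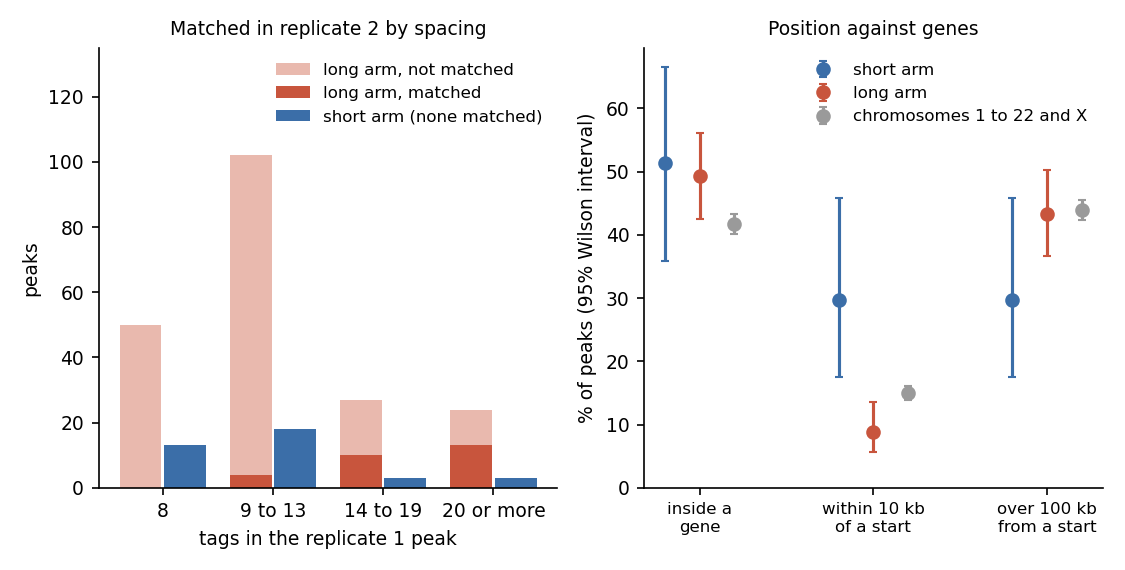
Left, replicate 1 peaks by tag class and arm, with the long-arm peaks paired in replicate 2 in the dark part of each bar; right, percent of peaks inside a gene, within 10 kb of a start and over 100 kb from one, with 95% Wilson intervals. Of long-arm peaks with 20 or more tags 13 of 24 were paired, and within 10 kb of a start lay 29.7% of short-arm and 8.87% of long-arm peaks.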

How the data were processed

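ChIP-seq peak lists of 2 p63 IPs in HSC-5 cells were analysed. Per the file headers, the authors called each list against 1 control with MACS 1.4.2 at a p cut-off of 1e-05, keeping 1 tag per position and scaling the larger library to the smaller. The submitters' processing notes name Bowtie, Trimmomatic, FastQC and the build hg19. Replicate 1 was nevertheless read as GRCh38, whose contig names it carries, and no coordinate was converted. The deposited tag count per peak is a whole number, not normalised. The deposited fold enrichment is a ratio of IP to a control level that the lists do not give. The deposited score is minus 10 times log10 of the p-value. The deposited false discovery rate, in percent, was not used to filter. The first of 3 sheets of replicate 1 was used.

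Arm lengths ran to the end of the last protein-coding gene (RefSeq, GRCh38.p14). Counts were compared with exact two-sided binomial tests against length or gene share, with Clopper-Pearson intervals (Python 3.11.15, scipy 1.17.1). For bins the test ran over all 316 bins of chromosomes 1 to 22 and X. Summits were the start plus the summit offset. Peaks were paired over peaks under 1 kb wide, with supporting pairs over 2 kb and under 10 Mb away and offsets up to 5 Mb. Scripts were tested on simulated data. Text names the 10 peaks of highest fold and the 5 of most tags per arm, list genes and promoters with a peak, by rule. 1 peak that the rule names is not reported here. Some further nearest genes and the paired sites were named after their values were seen. The members, lists and pairing were chosen with earlier results of these data known. Inputs were not used here.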

Additional observations from a re-analysis of the deposited data

Results flagged for a closer look

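Between 90 and 94 Mb, in neither arm, replicate 1 held 15 peaks with 1990 tags, which no comparison of the arms used. This was picked out as signal outside the main measurement. Of these, 6 peaks with 20 tags or more held 1903 tags, 38.3% of all tags in peaks of the chromosome, at folds of 2.73 to 4.72 and widths up to 3590 bp. The other 9 held 8 to 15 tags each at folds of 8.28 to 20.37. Replicate 2 held 1 peak between 90 and 94 Mb of its own numbering, with 4 tags. The lists use different genome numberings, so these limits do not mark the same bases in both. Whether the stretch holds the same sequence in both numberings was not tested, so no difference between the replicates is read from these counts. No group has 4 or more samples, so none was tested for a sample that stands apart.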

How the results depend on the processing

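Of 55 recomputed values, 45 kept their direction and call, stayed within the interval of the value reported or, for bins, kept a similar count. The count of bins was compared whatever their direction. Gene share in place of length, with 6 above and 4 below, was thus among the 45, as were bins of 5 Mb. The report has 3 above and 6 below. The arm ratio per Mb ranged from 1.60 in the replicate 2 list to 5.51 with more than 8 tags. At a score of 100 or more it was 3.46. It passed the threshold in all 8 alternatives that gave a value. The alternative of widths under 1 kb could not change it, since 0 peaks of either arm were 1 kb or wider. The same holds for the other ratios and for the medians, so these values were among the 45 by construction. The ratio of the last segment to 94 to 150 Mb lost its call at a score of 100 or more, at 1.70 per Mb (exact binomial p = 0.16) and 1.88 per gene (exact binomial p = 0.077), and in replicate 2 at 1.23 (exact binomial p = 0.29). These sets hold fewer peaks. Chromosome 3 bins called numbered 9 in the report, 5 with folds from 10 up (3 above and 2 below), 0 with scores from 100 up and 2 in replicate 2. In bins of 5 Mb they were 6 above and 3 below. The difference in median tags, 0 in the report, became 9 at a score of 100 or more, and that in median width, 13 bp, became 91 bp. The difference in median fold, -5.19 for long minus short arm, became -8.24 with more than 8 tags and -56.4 in replicate 2. The cause was not tested. Among paired peaks alone, an alternative added after seeing the data, the ratio has no finite value, with 27 against 0. With 1 or 3 supporting pairs the long arm had 34 and 22 pairs and the short arm 0. No paired analysis was possible because the groups compared are arms of 1 library. Leaving out a replicate leaves the other list alone, as given.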

Other observations

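Spacing along the arms differed as their densities do. The median gap between neighbouring summits was 1333 kb on the short arm and 309.3 kb on the long arm. The longest stretch without a summit was 9.96 Mb on the short arm and 2.51 Mb on the long arm. Summits within 10 kb of another numbered 0 on the short arm and 14 on the long arm, of which 12 lay beyond 150 Mb.

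Across the 20 bins, counts of the replicates had Pearson's r = 0.363 and Spearman's rho = 0.328, given as a description, since bins of 1 chromosome share their neighbours, arm and libraries. Within the 10 long-arm bins from 100 Mb r was 0.145. Between peaks and protein-coding genes per bin r was -0.0283 and rho 0.183 in replicate 1, and r was 0.367 and rho 0.438 in replicate 2. The 20 bins include the bin at 90 Mb, whose 22 replicate 1 peaks include the 15 that lay between the arms.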
